A study of Mus musculus with 5 samples.

Results

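The replication-dependent histone genes are the cluster genes whose symbols begin with Hist1h, Hist2h, Hist3h or Hist4h. They were taken as every row of the deposited gene table with such a symbol, which gave 67 of 32285 genes. The rule reads symbols alone, but the members were chosen with earlier results of these data known. Single cell RNA was measured in mouse spleen in 5 libraries, 1 for each group. C57/BL6 mice received an intravenous infusion of saline (C), of live allogeneic Balbc splenic cells (LA), of live isogeneic B6 cells (LI), of apoptotic allogeneic cells (AA) or of apoptotic isogeneic cells (AI), and spleens were taken 48 h later. CD45+ cells and dendritic cells (DCs) were enriched magnetically in separate fractions and mixed again in equal parts, so that shares of cell types are those of the mixture. Each library was made with the 10x Genomics 3′ v3.1 kit, and how many mice went into one was not given in the sources used here.

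Replication-dependent histones package newly copied DNA. In textbooks, their messages rise as a cell enters S phase and are degraded when replication ends, and they do not end in a poly(A) tail: the RNA is cut just after a conserved stem-loop, which the stem-loop binding protein Slbp holds. The core histones H2A, H2B, H3 and H4 form the nucleosome and the linker histones H1 bind the DNA between nucleosomes. A 3′ kit primes on poly(A), so a counted molecule was one that carried a tail or a run of A within it, and these counts are not the total histone mRNA of a cell.

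Of the members, 54 lie on chromosome 13 between 21715763 and 23934851 (GRCm38), 10 on chromosome 3, 2 on chromosome 11 and 1 on chromosome 6. By family there are 6 linker H1 genes, 18 H2A, 18 H2B, 12 H3 and 13 H4 genes. Stem-loop sites from the GENCODE vM21 transcripts are shown for members that carry the results, because the distance from this site to the end of the annotated transcript differs widely among them. The 16 bases in capitals are the stem-loop.

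Hist1h2ap: aaaaGGCTCTTTTCAGAGCCatc
Hist1h2ab: caaaGGCTCTTTTCAGAGCCacccac
Hist1h3c: aaaaGGCTCTTTTAAGAGCCacctaa
Hist1h3b: caaaGGCTCTTTTCAGAGCCacccac
Hist1h4d: caaaGGCCCTTTTCAGGGCCactacc
Hist1h1e: caaaGGCTCTTTTCAGAGCCacccac
Hist1h1c: aaaaGGCTCTTTTCAGAGCCaccact
Hist1h1d: aaacGGCTCTTTTCAGAGCCacccac
Hist1h2ac: caaaGGCTCTTTTCAGAGCCcccact
Hist3h2a: caaaGGCTCTTTTCAGAGCCacccac

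The annotated transcript went on for 3 bases after the stem-loop in Hist1h2ap, 11 in Hist1h2ab, 51 in Hist1h3b and 74 in Hist1h3c. It went on for 770 bases in Hist1h4d, 840 in Hist1h1c, 1153 in Hist1h1e, 1643 in Hist3h2a, 2010 in Hist1h2ac and 4884 in Hist1h1d. In all, 23 members had a model ending within 100 bases of the site, 23 had a longer one, and 21 had a model without the site. The same motif stood in 1910 of 141767 transcripts (1.35%). Its letters are a description of the annotation, and which 3′ end the counted molecules had was not read here.

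Promoter windows from RefSeq (GRCm38.p6), reaching from 250 bases before to 50 after the start, were matched for 61 of the 67 members, all by symbol or synonym. The windows of 4 members are shown because these genes lead the counts in their families or, in Hist1h1c, differ from the rest in the results. Capitals mark the letters of the CCAAT box (CCAAT), the TATA box (spelled TATAAA), the octamer bound by POU factors (ATTTGCAT) and the H1 box (spelled AAACACA), each read on both strands. In the Hist1h2ae window TTTATA and ATGCAAAT are reverse-strand spellings, and that window shares 279 bases with the one of Hist1h2bg on the opposite strand. Which gene of that pair these letters belong to was not tested.

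Hist1h1b, chr13:21780576-21780875, minus strand: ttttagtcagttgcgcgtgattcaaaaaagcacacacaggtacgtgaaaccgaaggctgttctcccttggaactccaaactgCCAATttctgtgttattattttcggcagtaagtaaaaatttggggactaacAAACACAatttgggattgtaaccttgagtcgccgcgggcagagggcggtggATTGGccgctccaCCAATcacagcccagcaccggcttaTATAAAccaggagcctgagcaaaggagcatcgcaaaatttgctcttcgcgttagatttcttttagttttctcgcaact
Hist1h1c, chr13:23738557-23738856, plus strand: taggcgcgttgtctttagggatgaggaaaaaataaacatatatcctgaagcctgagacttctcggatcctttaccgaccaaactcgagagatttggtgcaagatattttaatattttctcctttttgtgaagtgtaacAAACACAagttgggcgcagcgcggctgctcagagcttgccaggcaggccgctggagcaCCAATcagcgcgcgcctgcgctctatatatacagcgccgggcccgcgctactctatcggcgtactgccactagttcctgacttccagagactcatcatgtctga
Hist1h2ae, chr13:23571171-23571470, minus strand: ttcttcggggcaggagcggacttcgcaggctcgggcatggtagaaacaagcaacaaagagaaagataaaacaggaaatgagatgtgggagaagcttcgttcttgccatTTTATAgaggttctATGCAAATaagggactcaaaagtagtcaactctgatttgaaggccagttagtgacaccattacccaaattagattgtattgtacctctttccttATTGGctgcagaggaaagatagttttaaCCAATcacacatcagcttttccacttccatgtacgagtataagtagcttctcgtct
Hist1h4d, chr13:23581318-23581617, plus strand: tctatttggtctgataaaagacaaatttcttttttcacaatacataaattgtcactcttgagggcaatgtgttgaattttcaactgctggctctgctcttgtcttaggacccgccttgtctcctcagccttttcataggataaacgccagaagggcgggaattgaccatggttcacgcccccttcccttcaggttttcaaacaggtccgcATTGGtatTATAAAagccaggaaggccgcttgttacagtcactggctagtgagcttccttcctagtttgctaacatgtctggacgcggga

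CCAAT stood in 52 of the 61 windows (85.2%) and in 37.4% of all 32851 windows of the table. It was present in each matched H1, H2A, H2B and H3 window and in 3 of 12 H4 windows. TATAAA stood in 35 of 61 (57.4%, against 13.6% of all windows). The octamer stood in 13 of 61 (21.3%, against 1.74%), of which 7 were H2A and 6 H2B windows. AAACACA stood in 9 of 61 (14.8%, against 7.18%), among them 5 of the 6 H1 windows. In 9 pairs an H2A and an H2B gene on opposite strands had overlapping windows, and the members of a pair could differ widely in counts: Hist1h2ae had 21398 unique molecular identifiers (UMIs) and Hist1h2bg 793 from windows sharing 279 bases. Since motifs were read on both strands, a site within shared bases was counted for both genes of a pair, and the counts above are not of separate sites.

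After the filter on barcodes (at least 1000 UMIs, 500 genes and at most 10% mitochondrial UMIs) and removal of called doublets, 16136 cells were kept. There were 2894 cells after saline, 1185 after live allogeneic and 3680 after live isogeneic infusion, with 2114 and 6263 after apoptotic allogeneic and isogeneic infusion. Median depth per cell was 3420.5, 4974, 3880, 4465.5 and 2267 UMIs in that order. The live isogeneic library stood apart in Gm42418, a gene model that overlaps ribosomal RNA, at 57570 CPM (UMIs of a gene per 1000000 UMIs of the sum) against 14068 to 17067 CPM in the other 4 libraries. Leaving mitochondrial, ribosomal protein, immunoglobulin and haemoglobin genes, Gm42418 and AY036118 out of the total did not turn the direction of any comparison of libraries below. Between 0 and 8 barcodes were shared by a pair of libraries, against 0.37 to 3.46 by chance.

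The members gave 201243 UMIs, and they were dominated by few genes. No UMI was found for Hist1h2aa and Hist1h2bq, 62 members had at least 20 UMIs, and 63 had a UMI in every library. The 12 most counted members held 76.2% of the member UMIs. By family the share was 36.0% for H1, 32.6% for H2A, 12.2% for H3, 11.04% for H4 and 8.18% for H2B. These are counts near the 3′ ends of tailed molecules and give no order of the proteins.

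Near-identical copies limit how far single members can be told apart. Of the 67, 31 shared over 50% of their 60-base transcript windows with another gene. Hist1h2ap shared 92.9% of its windows, most with Hist1h2ao, which had 33 UMIs beside the 16595 of Hist1h2ap. Among the members named below, Hist1h2an (85.3%), Hist1h2af (76.2%), Hist1h3e (68.0%), Hist1h3b (59.7%), Hist1h2ab (57.0%) and Hist1h3g (51.0%) also passed that share. So did Hist2h3c1 (100%), Hist1h2ai (89.8%), Hist2h2aa1 (89.2%), Hist1h2ag (78.4%) and Hist1h4k (70.0%). Values of these members and of Hist1h2ap are therefore uncertain between copies, while the linker genes Hist1h1b and Hist1h1a shared none. The annotated span of Hist1h2be (chr13:23583670-23621124) ends within that of Hist1h1e, so the 2 overlap in part.

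Among the linker genes, Hist1h1b (chr13:21779883-21780625) was the most counted member with 31936 UMIs. Its level was 276.73 CPM in saline, 447.55 in live allogeneic, 564.95 in live isogeneic, 370.63 in apoptotic allogeneic and 177.64 in apoptotic isogeneic cells. Hist1h1e (chr13:23620629-23622558) stood at 201.40, 230.03, 397.69, 211.84 and 172.50 CPM in the same order. Live isogeneic cells were highest in both, and the apoptotic isogeneic cells lowest.
Hist1h1c was at 84.37, 85.89, 147.47, 83.05 and 84.27 CPM, so that 4 libraries lay between 83.05 and 85.89 CPM. Hist1h1d stood at 56.08, 60.23, 108.38, 66.42 and 40.79 CPM and Hist1h1a at 37.34, 49.91, 67.21, 48.11 and 21.54 CPM. Hist1h1t, the testis linker histone, had 1, 6, 1, 6 and 2 UMIs.

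Of the H2A genes, Hist1h2ae (chr13:23570517-23571220) stood at 150.14, 392.72, 324.73, 300.94 and 120.70 CPM and was the one member of the leading 3 that was highest in live allogeneic cells. Hist1h2ap (chr13:21833026-21833507) ranged more widely than any other member of the leading 12, from 80.60 CPM in saline to 200.76, 467.53, 109.45 and 15.28 CPM. Hist2h2ac stood at 68.11, 90.82, 143.18, 94.75 and 49.94 CPM. Hist1h2ab and Hist1h2an shared the order of Hist1h2ae, at 111.84 and 78.41 CPM in live allogeneic, 102.55 and 70.42 in live isogeneic, 90.83 and 62.82 in apoptotic allogeneic, 47.62 and 18.67 in saline, and 33.39 and 29.08 CPM in apoptotic isogeneic cells, except that Hist1h2an was lowest in saline.
The H4 gene Hist1h4d (chr13:23581598-23582735) stood at 81.84, 169.51, 207.39, 186.60 and 80.40 CPM. The H3 genes Hist1h3c (chr13:23744973-23745602) and Hist1h3e stood at 44.43 and 53.73 CPM in saline, 126.61 and 75.19 in live allogeneic, 205.76 and 114.05 in live isogeneic, 75.48 and 76.12 in apoptotic allogeneic, and 39.81 and 46.76 in apoptotic isogeneic cells.

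**Figure D1:**
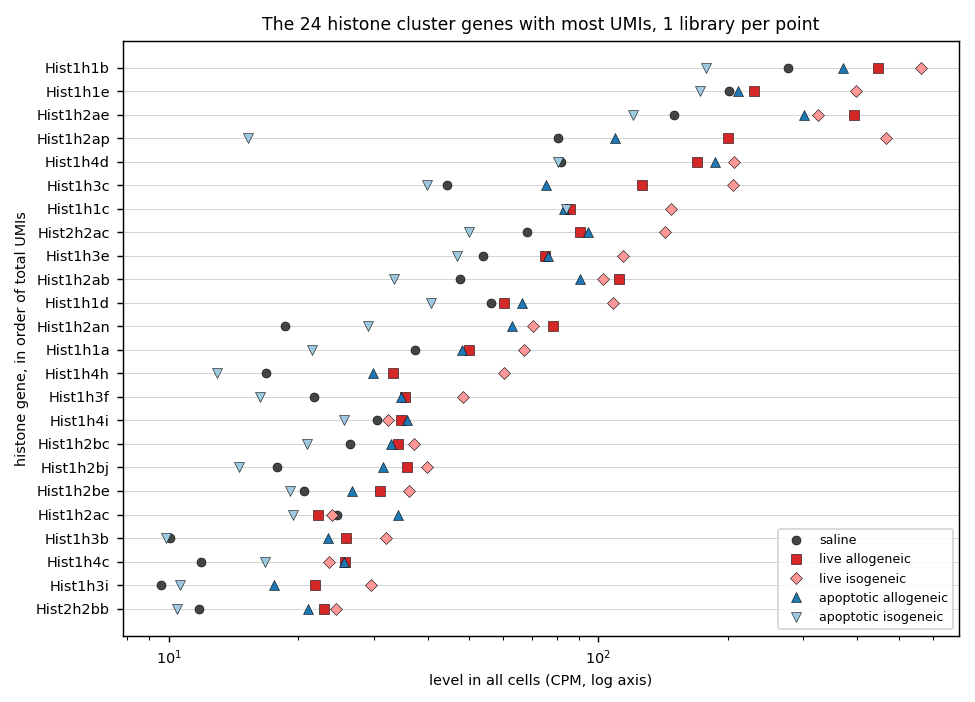
Level of the 24 most counted members in all cells, in CPM on a log axis, with genes as rows in order of total UMIs and 1 point per library. There is no error between libraries, and Hist1h2ap spans the widest range, from 15.28 to 467.53 CPM.

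Cell classes differed by far more than libraries in the summed member level. A cluster took the name of a cell type, with "-like" added, from a list of its markers. A class that had such a name was called cycling when it carried at least 8 of 12 cycling markers. Cluster 20 carried 12 of 12 but was left unnamed, because another cell type had more markers among its 10 leading genes. At Leiden resolution 2, a stromal-like cluster of 139 cells led by Coch and Cxcl12 stood at 724.45 CPM. A cycling cDC2-like cluster of 167 cells led by Pclaf stood at 11257.9 CPM there. The members were left out of the genes used for clustering, but genes that vary with the cell cycle were not, so a high member level in a class named cycling is not independent of its name. Over the libraries with enough cells, the median member level was 9129.5 CPM in cluster 20 (193 cells, led by Coch, Cxcl12 and Pclaf), 6045 in cycling T-like, 5517.2 in cycling cDC1-like, 5308.9 in cycling erythroid-like, 4325.7 in cluster 21 (led by Pf4, Angpt1 and Cpa3) and 3652.7 CPM in cluster 17 (led by Pclaf, Alpl and Fcrl5). Those 6 classes held 9.37% of the cells, 30.3% of all UMIs and 81.0% of the member UMIs.

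Cycling erythroid-like cells, named from markers of red cell precursors, gave the most member UMIs. They were 628 cells (3.89% of all) with 50.4% of the member UMIs. Their level was 4065 CPM in 80 cells after saline, 5576.5 in 49 after live allogeneic and 8561.4 in 312 after live isogeneic infusion. After infusion of apoptotic cells it was 5308.9 CPM in 103 (allogeneic) and 4164.1 CPM in 84 cells (isogeneic). The live isogeneic library was highest. They supplied between 34.5% (apoptotic isogeneic) and 59.3% (live isogeneic) of a library's member UMIs. The larger of their clusters (594 cells) had Car1, Car2 and Klf1 among its 10 leading genes and no haemoglobin gene, with 8 of 14 erythroid markers. Haemoglobin genes led the smaller one (34 cells), with 13 of 14.

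Resting classes had a far lower level. The median was 1221.2 CPM in classical monocyte-like cells (2 libraries), 1194.2 in neutrophil-like, 997.86 in NK-like, 777.6 in mature DC-like, 733.34 in cDC2-like and 611.69 in B-like cells, and it was 334.93 in pDC-like and 283.97 in endothelial-like cells. B-like cells were 39.7% of the cells and held 6.21% of the member UMIs. Near-empty barcodes (1 to 99 UMIs), which hold free RNA, had a member level of 1207, 1908.9, 2390.3 and 1073.1 CPM in the saline, live allogeneic, live isogeneic and apoptotic isogeneic libraries. That is above the level of most resting classes, and the part of free RNA in those classes was not tested. The apoptotic allogeneic file held no such barcodes.

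**Figure D2:**
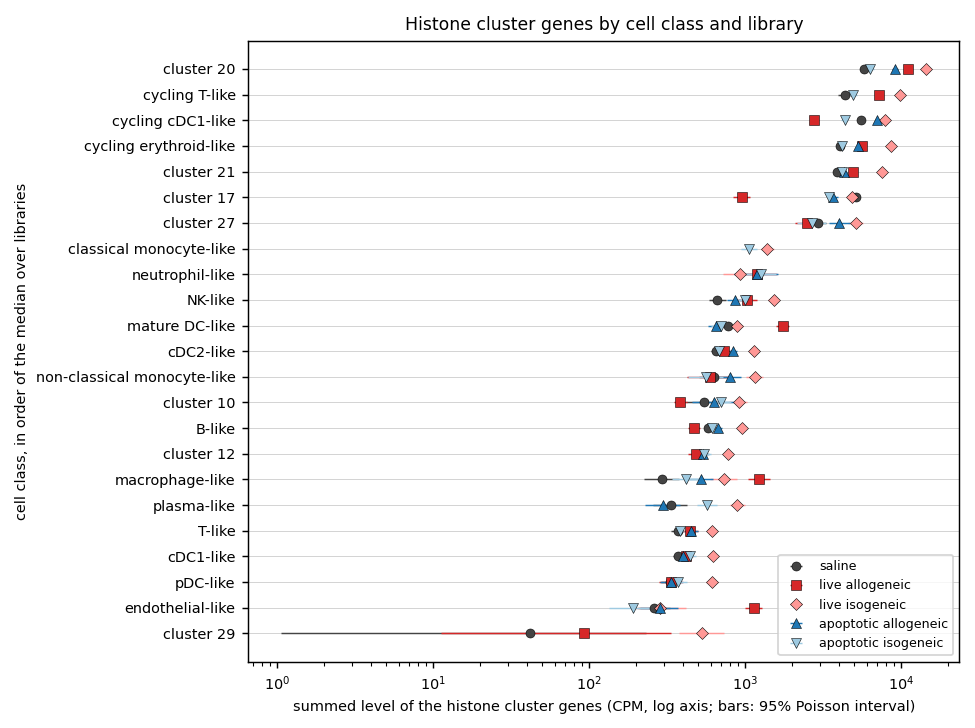
Summed level of the members per cell class, in CPM on a log axis, with classes as rows in order of their median, 1 point per library and bars for the 95% Poisson interval of the count. The 6 classes with the highest medians are cluster 20, cluster 17, cluster 21 and the cycling T-like, cDC1-like and erythroid-like cells.

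Each class was then set against the mean of the other classes with edgeR's quasi-likelihood test on sums per library and class, with library as a block (9990 genes and 43 members tested, Benjamini-Hochberg adjusted p under 0.05). Here the libraries serve as the replicates of a class, although each had another infusion. In cycling erythroid-like cells 38 of the 43 members were higher and 1 was lower, where 40.9% of all genes were higher and 26.8% lower. The highest were Hist1h3b (log2 fold change 5.31 ± 0.19 SE), Hist1h1a (4.81 ± 0.14), Hist1h2af (4.64 ± 0.26), Hist1h3c (4.35 ± 0.19) and Hist1h3g (4.18 ± 0.33). The single lower member was Hist3h2a (-1.66 ± 0.21, adjusted p = 3.6303e-12). The smallest rises there were those of Hist1h2ac (0.50), Hist1h2bc (0.80), Hist1h2be (0.83) and Hist1h2bg (1.32).

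In cluster 20, 41 members were higher and none was called lower (34.9% and 6.68% of all genes), led by Hist1h3b (6.16) and Hist1h2af (5.57). Higher were 39 in cluster 21 (32.8%) and 39 in cycling cDC1-like cells (29.8%). Higher and lower members were 37 and 1 in cycling T-like cells (22.0% and 9.56%, 4 libraries) and 34 and 1 in cluster 17 (27.2% and 13.4%). Hist3h2a was also the lower member in cycling T-like cells, at a log2 fold change of -2.04 ± 0.56. In T-like cells 2 members were higher and 18 lower (34.3% and 12.5% of all genes), in pDC-like cells 3 and 20 (28.2% and 9.96%), in B-like cells 1 and 12 (36.5% and 11.7%) and in endothelial-like cells 16 were lower (16.0%). Of the other resting classes, cDC1-like cells had 1 member higher and 16 lower (34.7% and 12.7%), cDC2-like 5 and 10 (30.8% and 8.55%), NK-like 3 and 6 (21.9% and 9.32%) and mature DC-like 7 and 2 (29.8% and 13.9%). Cluster 12 had 2 and 16 (30.3% and 5.82%) and non-classical monocyte-like cells 1 and 7 (19.3% and 7.41%). Cluster 10 had 10 lower (7.95%, with 19.9% of genes higher), macrophage-like cells 8 lower (9.21%, with 25.7% higher), and plasma-like cells 5 higher (13.9%, with 8.99% lower). The lower calls depended on single libraries: over the 21 classes, 150 pairs of a member and a class were called lower, against 62 without the apoptotic isogeneic and 73 without the apoptotic allogeneic library, each of these including 1 pair from cluster 29, a class that entered only in those fits. The higher calls numbered 273 and stayed between 244 and 289 when any 1 library was left out.

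A second set of members was counted in resting classes. Cluster 27 (105 cells, led by Ccl3, Ccl6, Gata2 and Hdc, and left unnamed) stood out among classes with few cells in cycle: 5.71% of its cells passed the replication threshold described below and its median member level was 2924.1 CPM. The linker genes gave 53.9% of its member UMIs, against 34.8% in cycling erythroid-like cells. That share was not particular to cluster 27. It was 53.3% in classical monocyte-like, 52.7% in non-classical monocyte-like, 52.1% in NK-like and 49.5% in B-like cells, and as low as 29.7% in pDC-like cells. In cluster 27, Hist1h1e held 23.2%, Hist1h1c 20.8% and Hist1h2ac 10.5% of the member UMIs. Hist1h2ac stood at 366.78, 165.90, 294.96, 701.58 and 367.94 CPM in its 5 libraries in the order above, while in cycling erythroid-like cells it was between 17.69 and 27.72 CPM, so the classes did not overlap. Against the mean of the other classes the log2 fold change of Hist1h2ac in cluster 27 was 4.27 ± 0.27 (adjusted p = 8.6964e-27) and that of Hist1h1c 2.43 ± 0.19 (adjusted p = 6.0422e-21). In all 13 members were higher in cluster 27 (12.9% of all genes were), and 8 without the live isogeneic library.

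Neutrophil-like cells were led by Hist1h1c and the H2B gene Hist1h2bc, which held 33.3% and 24.5% of their 261 member UMIs. Hist1h2bc stood at 311.59, 238.78, 278.47, 268.74 and 300.02 CPM in the 5 libraries, from 6 to 21 UMIs each, against 14.67 to 22.68 CPM in B-like cells. Its log2 fold change in neutrophil-like cells was 3.10 ± 0.33 (adjusted p = 5.8994e-14) in the 4 libraries with enough of these cells. Hist1h1c was also higher there (1.53 ± 0.27), and 6 members were lower, among them Hist1h1e, Hist1h2ae and Hist1h2ap (13.2% of all genes were higher and 18.8% lower).
In pDC-like cells the members that rose were Hist3h2ba (2.60 ± 0.31), Hist3h2a (1.79 ± 0.18) and Hist4h4 (1.44 ± 0.35), none of which lies in the chromosome 13 cluster. Hist3h2a stood at 47.34, 77.51, 52.71, 52.01 and 62.31 CPM in pDC-like cells and at 14.71 to 26.44 CPM in B-like cells. No library of one class overlapped with one of the other.

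**Figure D3:**
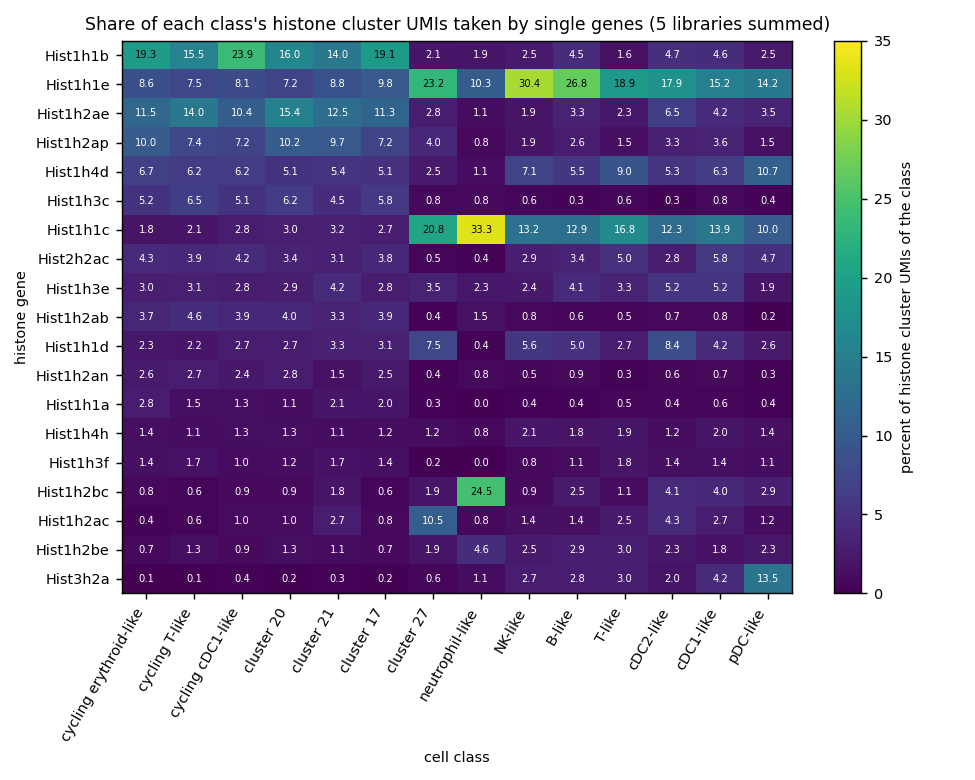
Share of each class's member UMIs taken by single members, in percent and summed over the 5 libraries, with members as rows and cell classes as columns. Hist1h1b leads the 6 classes at the left, Hist1h1c and Hist1h2bc lead neutrophil-like cells with 33.3% and 24.5%, and Hist3h2a holds 13.5% in pDC-like cells.

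To read the members against the cell cycle without using them, each cell was thinned to 1000 UMIs and scored by 43 replication genes and 33 genes of G2 and mitosis, no histone among them. Cells with at least 3 UMIs of the replication list and no fewer than of the mitosis list were called replication-high. Cells with at least 3 UMIs of the mitosis list and more than of the replication list were called mitosis-high, and cells with 0 of both cell-cycle-low. At the threshold itself, 461 cells had exactly 3 UMIs of the replication list and 1522 had 2. The replication-high share was 7.77% of saline cells (exact 95% interval 6.82 to 8.81), 11.3% of live allogeneic (9.56 to 13.3), 13.3% of live isogeneic (12.2 to 14.4), 9.51% of apoptotic allogeneic (8.29 to 10.8) and 5.35% of apoptotic isogeneic cells (4.80 to 5.94). Without cycling erythroid-like cells the 5 shares lay between 4.34% and 8.80%.

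The summed member level in cell-cycle-low cells was 500.4, 449.05, 831.42, 551.95 and 545.7 CPM in the order of the libraries above. In replication-high cells it was 3319.9, 4344.7, 6803.3, 3989.2 and 3329.3 CPM, and in mitosis-high cells 4943.2, 7785.8, 10256.3, 8630.6 and 5271.2 CPM. In each of the 5 libraries the level was lowest in cell-cycle-low and highest in mitosis-high cells. Median depth differed too, from 2276 to 4607 UMIs in cell-cycle-low, 4022 to 15502.5 in replication-high and 4648 to 18348 in mitosis-high cells, and its part in the result was not tested.

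**Figure D4:**
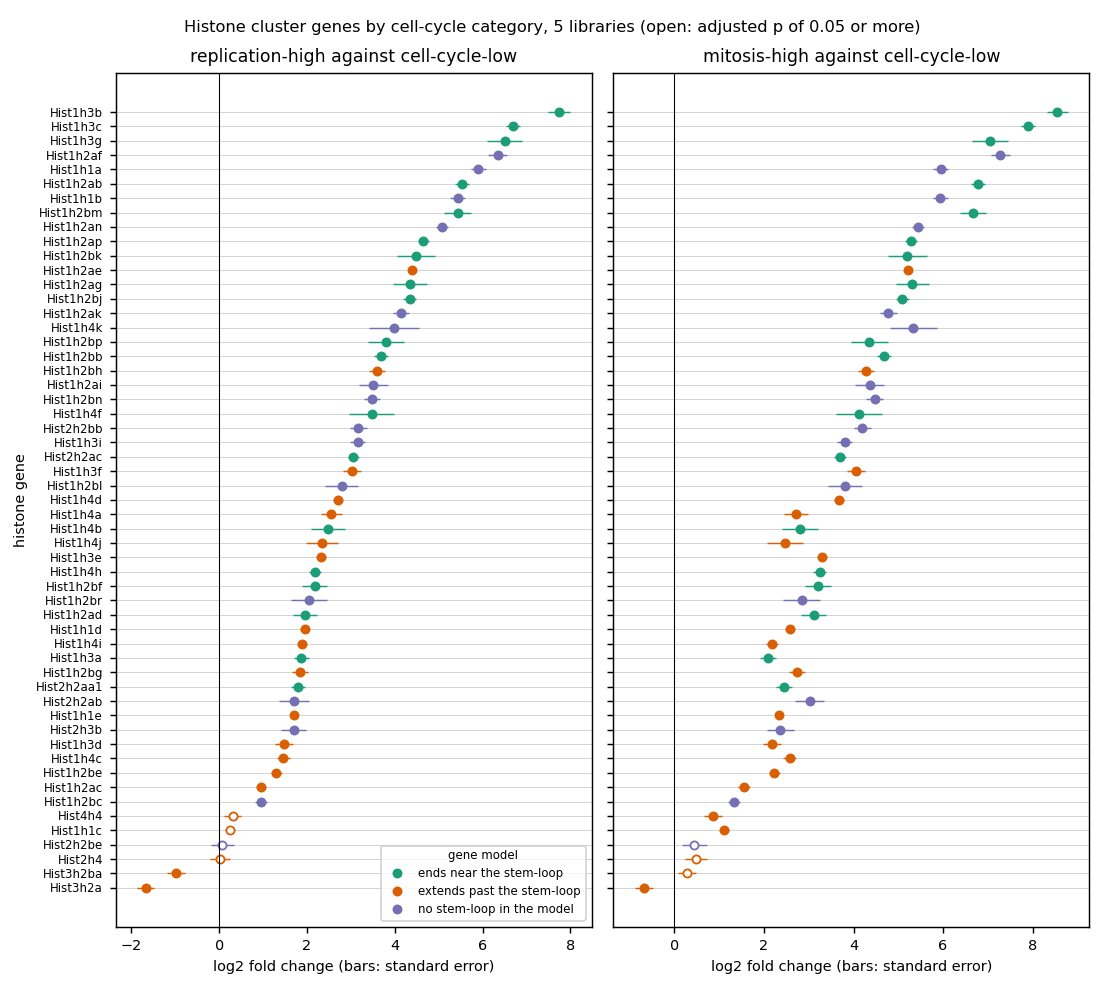
Log2 fold change of the 55 tested members in replication-high (left) and mitosis-high (right) against cell-cycle-low cells, with 1 row per gene, bars for the standard error, colours for the kind of gene model and open points for an adjusted p of 0.05 or more. Hist1h3b stands at the top of both panels (7.74 and 8.55) and Hist3h2a at the bottom (-1.67 and -0.68). The fold changes of Hist1h3b depend on the prior count, as it had few UMIs in cell-cycle-low cells.

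In replication-high against cell-cycle-low cells, 49 of 55 members were higher and 2 lower (edgeR quasi-likelihood test, library as block, 11207 genes), where 37.4% of all genes were higher and 41.5% lower. The median log2 fold change was 2.71 over the members and -0.07 over all genes. Hist1h3b, an H3 gene, rose most (7.74 ± 0.25), from 0, 0, 3, 0 and 2 UMIs in cell-cycle-low cells of the 5 libraries to 65, 114, 458, 204 and 121 UMIs in replication-high cells. No library of one category overlapped with one of the other. Next came Hist1h3c (6.69 ± 0.16), Hist1h3g (6.5 ± 0.39), Hist1h2af (6.34 ± 0.22) and Hist1h1a (5.90 ± 0.17). Hist1h3b had at most 3 UMIs per library in cell-cycle-low cells, and Hist1h3g had 2 in all such cells together. The fold changes of both therefore depend on the prior count. Both passed the filter on low counts only through the categories where they were high, so their rank is a description. The same holds for Hist1h3c and Hist1h1a, which stood at 0.58 to 4.15 and 0.65 to 2.80 CPM in cell-cycle-low cells.

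The 2 members that fell were the pair on chromosome 11. Hist3h2a stood at 20.67, 20.07, 26.62, 17.89 and 19.55 CPM in cell-cycle-low cells and at 8.29, 5.24, 5.06, 6.95 and 9.0 CPM in replication-high cells, with no overlap (-1.67 ± 0.19, adjusted p = 1.3821e-06). Hist3h2ba fell by 0.99 on the log2 scale (adjusted p = 0.00043427). The smallest rises were those of Hist1h2bc (0.95 ± 0.13), Hist1h2ac (0.95 ± 0.12) and Hist1h2be (1.30 ± 0.13). Hist1h1c (0.25 ± 0.11, adjusted p = 0.054757), Hist4h4, Hist2h2be and Hist2h4 did not pass the test.
The linker genes thus spread from 0.25 in Hist1h1c over 1.70 ± 0.09 in Hist1h1e and 1.95 ± 0.11 in Hist1h1d to 5.43 ± 0.17 in Hist1h1b and 5.90 in Hist1h1a. Per library, Hist1h1b went from between 11.01 and 39.23 CPM in cell-cycle-low to between 750.31 and 1242.7 CPM in replication-high cells, and Hist1h1c from between 55.04 and 123.70 to between 74.01 and 148.04 CPM.

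Members whose model ends within 100 bases of the stem-loop shown above were all 19 of 19 tested higher, with a median log2 fold change of 3.79. Those with a longer model gave 15 higher and 2 lower of 20, with a median of 1.77. Those with no stem-loop in the model gave 15 higher of 16, with a median of 3.33. By family the medians were 1.95 in H1, 3.83 in H2A, 2.98 in H2B, 3.02 in H3 and 2.33 in H4. These are descriptions, and the difference between kinds of model was not tested.

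The call changed when each cell class was compared with itself. With library and class as a joint block (35 blocks, 74 sums, 7449 genes), 9 of 38 members were higher in replication-high cells and 1 lower, where 7.65% of all genes were higher and 11.0% lower. The 9, each also called before, were Hist1h1a, Hist1h1b, Hist1h2ab, Hist1h2ae, Hist1h2an, Hist1h2ap, Hist1h2bm, Hist1h3b and Hist1h3c, and the lower one was again Hist3h2a (-1.11, adjusted p = 0.0065845). Over 20 pairs of a class and a library with both kinds of cell, the summed level in replication-high cells was higher in 10 and lower in 10, with a median ratio of 0.98. The ratio was 13.2 and 13.5 in the 2 libraries that gave cluster 17, and in cDC2-like cells it was below 1 in 4 of 4 libraries, between 0.49 and 0.72. In B-like cells it was above 1 in 1 of 4 libraries and in NK-like cells in 1 of 2. In T-like and cDC1-like cells it was above 1 in 3 of 4 libraries each, up to 2.04 and 1.86. Of the replication-high cells, 33.2% were cycling erythroid-like and 14.4% B-like. Cycling erythroid-like and cycling cDC1-like cells held 0 cell-cycle-low cells, so neither class could be compared with itself in this way. Of the 6 classes with the highest member level, cluster 17 alone gave such pairs. The pairs therefore come mostly from resting classes, and they cannot show whether the members differ within most classes of high member level.

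Mitosis-high cells carried more of the members than replication-high cells. In replication-high against mitosis-high cells 37 of 55 members were lower (edgeR, library as block), where 2.94% of all genes were lower and 1.28% higher, and DESeq2 called 36 lower. The log2 fold change of each tested member was below 0, from -1.35 ± 0.35 in Hist1h4k to -0.04 ± 0.12 in Hist1h1a (adjusted p = 0.91218). After Hist1h4k the lowest were Hist2h2ab (-1.31 ± 0.29), Hist3h2ba (-1.28 ± 0.23), Hist1h2ab (-1.24 ± 0.11) and Hist1h2bm (-1.24 ± 0.17). Hist1h2ab stood at 105.84, 162.09, 201.96, 145.38 and 102.44 CPM in replication-high and at 215.30, 396.62, 375.07, 474.05 and 275.64 CPM in mitosis-high cells, with no overlap. Hist1h1a stood at 119.03, 117.55, 172.62, 113.05 and 92.41 CPM and at 119.50, 112.03, 151.37, 161.03 and 99.20 CPM, with full overlap. With the joint block 19 of 38 members were lower (2.77% of all genes). Within a class the summed level was lower in replication-high cells in 15 of 18 pairs of class and library, with a median ratio of 0.759. The exceptions were 1 of 4 libraries in cycling cDC1-like and 2 of 5 in cycling erythroid-like cells. In the latter, replication-high cells were higher in saline (4181.8 against 3914.9 CPM) and apoptotic isogeneic cells (4237.2 against 4064.8 CPM).

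Against cell-cycle-low cells, 51 members were higher in mitosis-high cells and 1, Hist3h2a, lower (-0.68 ± 0.20), where 36.3% of all genes were higher and 38.6% lower. Hist1h3b (8.55 ± 0.24), Hist1h3c (7.90 ± 0.16), Hist1h2af (7.28), Hist1h3g (7.05) and Hist1h2ab (6.78) rose most. The values of Hist1h3b and Hist1h3g again depend on the prior count. Hist1h3c and Hist1h2ab (1.62 to 4.77 CPM in cell-cycle-low cells) also passed the filter only through the categories where they were high, so these ranks are a description. Hist1h1c, which had not passed in replication-high cells, rose by 1.10 ± 0.11 (adjusted p = 5.0984e-07). With the joint block 16 of 38 were higher (4.23% of all genes).

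Genes of histone supply outside the clusters were read in the same fits. In replication-high against cell-cycle-low cells, 37.4% of all genes were higher and 41.5% lower. Of 17 tested genes of histone 3′ end processing and transcription, 15 rose there. Slbp rose by 2.04 ± 0.10 on the log2 scale, Npat, a coactivator of histone gene transcription, by 1.24 ± 0.13, Casp8ap2 by 1.18 ± 0.08, and Lsm11 of the U7 particle by 1.26 ± 0.14. Slbp was also higher in replication-high than in mitosis-high cells (0.51 ± 0.10, adjusted p = 0.0065391), and so was Casp8ap2 (0.49 ± 0.08), which is the opposite order from the members. Of 20 histone chaperones, 17 rose and 1, Spty2d1, fell, with Nap1l1 at 1.21 ± 0.05 and Supt16 at 1.80 ± 0.07. Of 10 replication-independent variants, 6 rose, H2afz by 1.98 ± 0.07, and 3 fell: H1f0 by 0.54, H3f3b by 0.18 and H3f3a by 0.17. With the joint block 7 of 15 processing genes, 14 of 19 chaperones and 1 of 10 variants were higher and 3 of the variants lower, where 7.65% of all genes were higher and 11.0% lower. The 43 replication and 33 mitosis genes set the categories and are no result.

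The genes whose level was most like the member sum over 107 sums of class and library (23 classes) were Cks2 (Pearson r = 0.872), Hmgb2 (0.871), Kif15, E2f8, Hmmr, Plk1, Esco2, Spc25, Aspm and Nusap1 (0.830). These sums share libraries and depth, and r is given as a description.

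Between infusions there was 1 library for each group, so no test was possible. Ratios carry exact conditional Poisson intervals at 95%, which cover counting error only, and a member counted as higher or lower when it was past 1.5-fold with at least 20 UMIs in the 2 sums. Members were ranked on the log2(CPM + 10) scale. In sums over all cells, more cells of a type and more RNA per cell cannot be told apart. The member level was highest in live isogeneic cells at 3599.2 CPM, then 2722.1 in live allogeneic, 2350.7 in apoptotic allogeneic, 1577.7 in saline and 1237.6 CPM in apoptotic isogeneic cells. Without the cycling erythroid-like cells it was 1950.4, 2074.6, 1399.6, 1073 and 903.74 CPM in that same order.

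Live allogeneic against live isogeneic cells gave a ratio of 0.756 (0.746 to 0.766) for the summed members, with 4 members higher and 11 lower of 59 (7.57% and 9.56% of all genes). Hist1h2ag (2.81), Hist1h2ae (1.21) and Hist1h3d (1.37) were highest in this comparison, and Hist1h2ap (0.429), Hist1h1e (0.578) and Hist1h1d (0.556) lowest. Hist1h2ag rests on 79 and 64 UMIs. Without cycling erythroid-like cells the ratio was 1.06 (1.04 to 1.08), on the other side of 1, with 19 members higher and 6 lower of 58 (9.09% and 11.5% of all genes). Of the single classes compared, only macrophage-like cells were above 1 (1.69), and the rest lay between 0.423 (cluster 10) and 0.768 (cluster 20). Cycling T-like cells gave 5980 of the 17857 remaining member UMIs in live allogeneic (56 cells) and 1236 of 35132 in live isogeneic cells (12 cells). Their part in the ratio was not tested. Apoptotic allogeneic against apoptotic isogeneic cells gave 1.90 (1.87 to 1.93), with 44 members higher and 0 lower of 59 (13.8% and 9.21% of all genes), and 1.55 without cycling erythroid-like cells. Hist1h2ap (7.16), Hist1h2ae (2.49) and Hist1h2ab (2.72) were highest there, and Hist3h2a (0.875), Hist2h4 (0.878) and Hist1h1c (0.986) lowest.

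The 4 comparisons with saline share that library. The summed ratio was 1.73 (1.70 to 1.76) for live allogeneic, with 38 members higher and 1 lower of 59 (6.87% and 13.6% of all genes), and 2.28 (2.25 to 2.31) for live isogeneic cells, with 43 and 1 of 59 (8.63% and 12.6%). It was 1.49 (1.47 to 1.51) for apoptotic allogeneic, with 30 and 0 of 58 (3.63% and 6.97%), and 0.784 for apoptotic isogeneic cells, with 3 and 12 (6.03% and 15.6%). Hist1h2an led for live allogeneic (4.20), apoptotic allogeneic (3.36) and apoptotic isogeneic cells (1.56), and Hist1h2ap for live isogeneic cells (5.80). Hist1h2ae (2.62) and Hist1h3c (2.85) came next for live allogeneic, Hist1h3c (4.63) and Hist1h2an (3.77) for live isogeneic, Hist1h4d (2.28) and Hist1h2ae (2.00) for apoptotic allogeneic, and Hist1h4c (1.41) and Hist3h2ba (1.31) for apoptotic isogeneic cells.
At the low end were Hist3h2a (0.748), Hist1h2ac (0.905) and Hist2h2ab (0.707) for live allogeneic, Hist1h3d (0.786), Hist4h4 (0.714) and Hist2h4 (0.843) for live isogeneic, and Hist3h2a (0.848), Hist2h3c1 (0.839) and Hist1h1c (0.984) for apoptotic allogeneic cells. For apoptotic isogeneic cells they were Hist1h2ap (0.190), Hist1h1b (0.642) and Hist1h1a (0.577).

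Within cycling erythroid-like cells the ratio was 0.651 (0.638 to 0.665) for live allogeneic against live isogeneic, with 3 members higher and 21 lower of 57 (4.06% and 13.6% of all genes). It was 1.27 (1.24 to 1.31) for apoptotic allogeneic against apoptotic isogeneic, with 17 and 2 of 53 (5.12% and 5.17%). Hist1h2ap (0.361), Hist1h3c (0.405) and Hist2h2ac (0.479) were lowest in the former. Hist1h2ap (4.05) and Hist2h2aa1 (2.09) were among the highest in the latter, with Hist1h2ai, which rests on 50 and 5 UMIs. Against saline it was 1.37 for live allogeneic, 2.11 for live isogeneic, 1.31 for apoptotic allogeneic and 1.02 for apoptotic isogeneic cells. Median depth of these cells was 3603.5 UMIs in the live isogeneic library and 25900.5 to 43640 in the other 4. The member level was 8579.7 CPM in the 114 live isogeneic cells of at least 10000 UMIs and 8378.4 CPM in the 198 cells below that, a split chosen after seeing the data. In the other 4 libraries the cells of at least 10000 UMIs lay between 4071.9 and 5553.7 CPM. In B-like cells the level was 581.25, 470.6, 952.87, 673.25 and 611.69 CPM in the order used for single members above. The live isogeneic cells were highest in B-like, T-like, NK-like, cDC1-like, cDC2-like and pDC-like cells. Other classes went another way. Live allogeneic cells were above live isogeneic cells in macrophage-like (1225.6 against 727.08 CPM), mature DC-like (1735.9 against 883.74) and endothelial-like cells (1134.7 against 285.26). Those classes hold 280, 430 and 185 cells over the 5 libraries, but only 35, 25 and 27 in live allogeneic and 51, 102 and 17 in live isogeneic cells. Of the 35 macrophage-like cells, 17.1% were mitosis-high. The cell-cycle-low ones stood at 435.57 CPM on 14 member UMIs, against 587.01 in live isogeneic cells. Those in none of the 3 categories stood at 290.45 CPM on 16 member UMIs, against 560.45. The differences were not tested. The endothelial-like value in live isogeneic cells rests on 26 member UMIs. In cluster 17 saline was highest (5114 against 4870.2 CPM in live isogeneic cells). In neutrophil-like cells live isogeneic was lowest of the 4 libraries with enough of these cells (928.25 CPM). That value rests on 70 member UMIs, where apoptotic isogeneic cells had 80, and the order was not tested.

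Hist1h2ap differed from the rest in its share. It held 5.11% of the member UMIs in saline, 7.38% in live allogeneic, 12.99% in live isogeneic, 4.66% in apoptotic allogeneic and 1.23% in apoptotic isogeneic cells. Within cycling erythroid-like cells alone the shares were 6.37%, 7.92%, 14.3%, 5.69% and 1.79%, a 7.98-fold range. Among the members with at least 200 UMIs in those cells the next widest was Hist1h3d at 2.60-fold. Over classes with at least 200 member UMIs the share ran from 0% to 2.27% in 16 classes of apoptotic isogeneic and from 1.65% to 16.4% in 19 classes of live isogeneic cells. In near-empty barcodes Hist1h2ap stood at 63.15, 141.80, 237.36 and 13.79 CPM in the saline, live allogeneic, live isogeneic and apoptotic isogeneic libraries, which is the same order as in cells. Without Hist1h2ap the summed ratio was 0.805 for live allogeneic against live isogeneic and 1.83 for apoptotic allogeneic against apoptotic isogeneic cells.

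**Figure D5:**
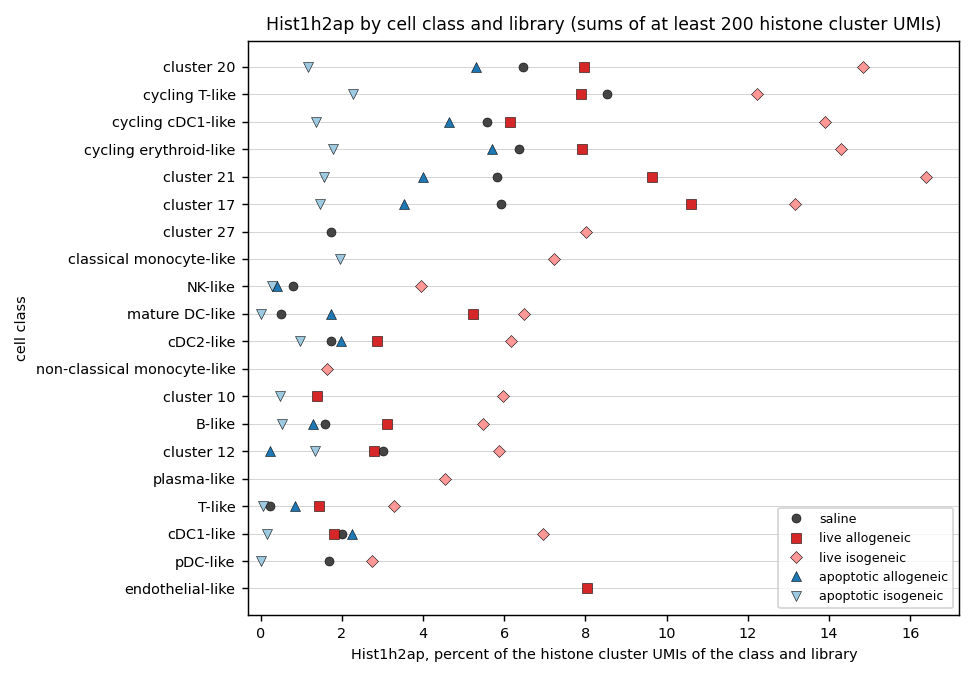
Share of the member UMIs taken by Hist1h2ap, in percent, with cell classes as rows and 1 point per library wherever a class had at least 200 member UMIs. Apoptotic isogeneic cells reach at most 2.27% and live isogeneic cells up to 16.4%.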

How the data were processed

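Deposited UMI counts per gene and barcode were used as the authors deposited them, whole numbers from Cell Ranger 4.0 on mm10 per the labels and the submitters' processing notes. The apoptotic allogeneic file held 2491 barcodes and each other file 6794880. Cells were kept as described, doublets were called with Scrublet in each library, and cells were clustered with scanpy 1.11.5 without the members. The members and gene lists were chosen with earlier results of these data known. Sums per library and category or class were tested with edgeR 4.0.16 (TMM, filterByExpr, quasi-likelihood, library as block, Benjamini-Hochberg), with DESeq2 1.42.0 as an alternative. Counts were also simulated from the real means and library sizes for replication-high against cell-cycle-low cells. There edgeR recovered 77% of 100 genes changed 2-fold and 100% of 100 changed 4-fold, with 8 false calls. The p-values measure the spread between 5 libraries of different infusions. Gene models were GENCODE vM21 and promoters RefSeq. Intervals cover counting error only.

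Named were the 12 most counted members and all H1 members, the 5 highest and 5 lowest called members of the main contrasts, the 3 highest and 3 lowest per comparison of infusions, and up to 4 genes of each other list. Alternatives covered normalization, filters, depth, doublets, thinning, clustering resolution and each library left out. Alternatives without Hist1h2ap, without cycling erythroid-like cells and with those cells of at least 10000 UMIs were chosen after seeing the data.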

Additional observations from a re-analysis of the deposited data

Results flagged for a closer look

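The allogeneic to isogeneic ratio was past 1.5-fold in opposite directions for live and apoptotic cells in 5 of the 12 most counted members, lower in live and higher in apoptotic cells, and the difference was not tested, since there was 1 library per group. Hist1h2ap stood at 0.429 for live and 7.16 for apoptotic cells over all cells, and at 0.361 and 4.05 within cycling erythroid-like cells. Hist1h3c stood at 0.615 and 1.90, and Hist2h2ac at 0.634 and 1.90. Hist1h3e stood at 0.659 and 1.63, and Hist1h1d at 0.556 and 1.63. Hist1h2ap and Hist1h3e share most of their transcript windows with near-identical copies, and the part of this in their ratios was not tested.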

How the results depend on the processing

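No paired analysis was possible because the groups hold 1 library each and share fewer than 2 replicate numbers. Of the ratios between infusions, 1 changed side: live allogeneic to live isogeneic over all cells, 1.06 without cycling erythroid-like cells, where 25 members (19 higher, 6 lower) in place of 15 (4 higher, 11 lower) were past 1.5-fold. Without those cells the ratio was 1.55 for apoptotic allogeneic to apoptotic isogeneic, and against saline 1.93 for live allogeneic, 1.82 for live isogeneic, 1.30 for apoptotic allogeneic and 0.842 for apoptotic isogeneic cells. The cause of the moves was not tested. In the same order of 6 comparisons over all cells, thinning gave 0.691, 1.65, 1.56, no move for live isogeneic, 1.37 and 0.833. Without Hist1h2ap the values were 0.805, 1.83, 1.68, 2.09 and, for apoptotic isogeneic to saline, 0.816. The other scaling gave 1.82 for apoptotic allogeneic to apoptotic isogeneic, and 1.78, 2.36, 1.53 and 0.844 against saline. At least 2000 UMIs per barcode gave 1.74, and 1.69, 2.24, 1.46 and 0.839. Within cycling erythroid-like cells, live allogeneic to live isogeneic was 0.671 with the other scaling, 0.694 thinned and 0.700 without Hist1h2ap, and apoptotic allogeneic to apoptotic isogeneic 1.22 in both of the last. Against saline these cells thinned gave 1.72, 2.48, 1.58 and 1.30. Live isogeneic gave 2.03 with the other scaling and 1.93 without Hist1h2ap, and apoptotic isogeneic 1.07 without it.

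Without Hist1h1b the levels were 1301, 2274.5, 3034.2, 1980.1 and 1059.9 CPM in the order of the report. At least 2000 UMIs gave 1621.1 (saline), 3623.9 (live isogeneic) and 1359.8 CPM (apoptotic isogeneic), and kept doublets 1216.3 CPM in the last. With 2 UMIs as the threshold, replication-high shares were 16.4%, 19.4%, 23.3%, 17.2% and 14.4%, and mitosis-high shares 5.32%, 8.86%, 7.99%, 5.11% and 3.96%. With library and class as joint block, 9 members were higher and 1 lower in replication-high against cell-cycle-low cells, 19 lower against mitosis-high cells, and 16 higher and 0 lower in mitosis-high against cell-cycle-low cells. Fewer genes entered that fit (7449 against 11207), and more sums (74). Pairs of member and class called lower numbered 270 with DESeq2 against 150, and between 62 and 135 with 1 library left out, where cluster 29 added 1 pair to the lowest. Depth limits members of few UMIs, and single libraries limit every ratio between infusions.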
